A study of Homo sapiens with 12 samples.

Results

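Overexpression of full-length MED12 was compared with overexpression of GFP in HEK293, an established cell line of human embryonic kidney origin. The comparison used the 3 arrays whose titles name the full-length construct and the 3 arrays whose titles name the GFP control, out of 12 arrays in the series. It is described over the 14432 rows that carry 1 gene symbol, out of 22011 rows, and these rows hold 14232 different genes. A row summarises the probes of a gene or of a stretch with several genes. The series design names GFP against full-length MED12 as one of its comparisons, so the question was which transcripts differ between cells given additional MED12 and cells given GFP alone.

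Cells of the full-length group received complete MED12 with nuclear GFP fused at its N-terminus, behind an engineered Kozak sequence, in the plasmid pcDNA5/TO. Cells of the PQL/Opa-deleted group received a shortened MED12 lacking the PQL and Opa domains. The control cells received nuclear GFP in pcDNA5/TO. All cells had grown for 24 hours before lipofection and were harvested 48 hours after it, and living cells with visible GFP were sorted for 20 minutes per sample, so that collection was set by time and not by cell number. The remaining group, with a short hairpin RNA against MED12, entered the shared estimate of spread and the mean levels over all 12 arrays, and is not compared here. The labels call the 3 samples of each group biological replicates. Total RNA was amplified, labelled with biotin and hybridised to 1-colour arrays. In RNA from a whole sample, fewer cells of a type and less RNA per cell cannot be told apart.

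MED12 belongs to the kinase module of Mediator, together with cyclin C, the kinase CDK8 or CDK19, and MED13 or MED13L. Mediator carries signals from DNA-bound transcription factors to RNA polymerase II, and MED12 activates the kinase of the module. The heat shock response, which takes up much of what follows, is driven by the transcription factor HSF1. When misfolded proteins accumulate, HSF1 binds heat shock elements, arrays of alternating GAA and TTC units, and raises transcription of chaperones. DNAJ proteins (HSP40) deliver clients to HSP70, nucleotide exchange factors such as HSPH1 and BAG3 release them, and HSP90 acts on clients nearer to their folded state.

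The 12 arrays had median log2 values between 3.39 and 3.51. Their standard deviations differed more, and replicate 1 had the smallest in every group. Replicate 1 of the GFP group was narrow, at 1.40, beside 1.58 and 1.60 in the other GFP arrays and 1.51 to 1.56 in the full-length arrays. Replicate 1 stood at 1.45 in the PQL/Opa-deleted group, beside 1.56 and 1.60, and at 1.34 in the hairpin group. The 16 marker genes listed for HEK293 had a median log2 level of 4.15 with full-length MED12 and 4.18 with GFP, led by KRT8 at 7.31 and 7.25. The 5 endothelial markers had medians of 2.51 and 2.70, the 7 fibroblast markers 2.76 and 3.01, the 5 hepatocyte markers 2.32 and 2.37, and the 6 blood markers 2.05 and 2.27. Each of those medians lay below the median of all rows with 1 symbol, 3.40 with full-length MED12 and 3.42 with GFP.

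The MED12 row (row 3980758) read 10.63, 10.66 and 10.75 with full-length MED12, against 4.03, 4.56 and 4.66 with GFP. All 3 full-length arrays stood far above all 3 control arrays, and their own spread was small. The mean log2 level was 10.68 ± 0.06 with full-length MED12 and 4.41 ± 0.34 with GFP (SD, n = 3 each). The groups thus differed by 6.27 ± 0.20 on the log2 scale (SE), or 77.0-fold, with a limma adjusted p of 3.67e-08. The row read 8.62, 8.90 and 9.25 with the PQL/Opa-deleted construct, and full-length exceeded it by 1.76 ± 0.20 on the log2 scale (95% interval 1.32 to 2.20, limma adjusted p = 0.0421). The call between constructs was lost with a variance trend and in most fits that left out 1 array. The position of the probes along MED12 is not given, and any probe within the PQL or Opa domain would miss the shortened construct.

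The other members of the kinase module had small differences. MED12L, the paralogue of MED12, read 2.71, 3.06 and 2.86 with full-length MED12, against 3.12, 2.92 and 2.81 with GFP. Its log2 fold change was -0.07 ± 0.18 (SE), and the sign turned without replicate 1 of either group. The kinase CDK8 had a log2 fold change of 0.17 ± 0.33 and its paralogue CDK19 had -0.08 ± 0.15. Cyclin C (CCNC) had -0.03 ± 0.24, MED13 had 0.11 ± 0.35 and MED13L had 0.22 ± 0.35 (SE throughout). The groups overlapped for each of these 6 genes, and MED12 was the 1 measured member of 7 that passed.

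Over all rows, 3 passed a limma adjusted p of 0.05, and each was higher with full-length MED12 (0.0136% of rows). Besides MED12, these were rows with several gene symbols, to which no single gene can be assigned. Among rows with 1 symbol, MED12 was thus the only one to pass with adjustment over all 22011 rows (0.00693%), and 0 were lower (0.00%). DNAJB1 passed as well with adjustment over the rows with 1 symbol alone (limma adjusted p = 0.0191) or with the replicate number as a block (0.0160). An unadjusted p under 0.05 was reached by 160 rows with 1 symbol on the higher side (1.11%) and 84 on the lower side (0.582%), or by 330 (2.29%) and 188 (1.30%) with the block. Groups did not overlap in 526 rows on the higher side (3.64%) and 397 on the lower side (2.75%). A difference over 2-fold was seen in 13 rows on the higher side (0.0901%) and 8 on the lower side (0.0554%). The middle of the distribution was narrow, with 25th and 75th percentiles of the log2 fold change at -0.11 and 0.12 and a median of -0.0046.

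**Figure D1:**
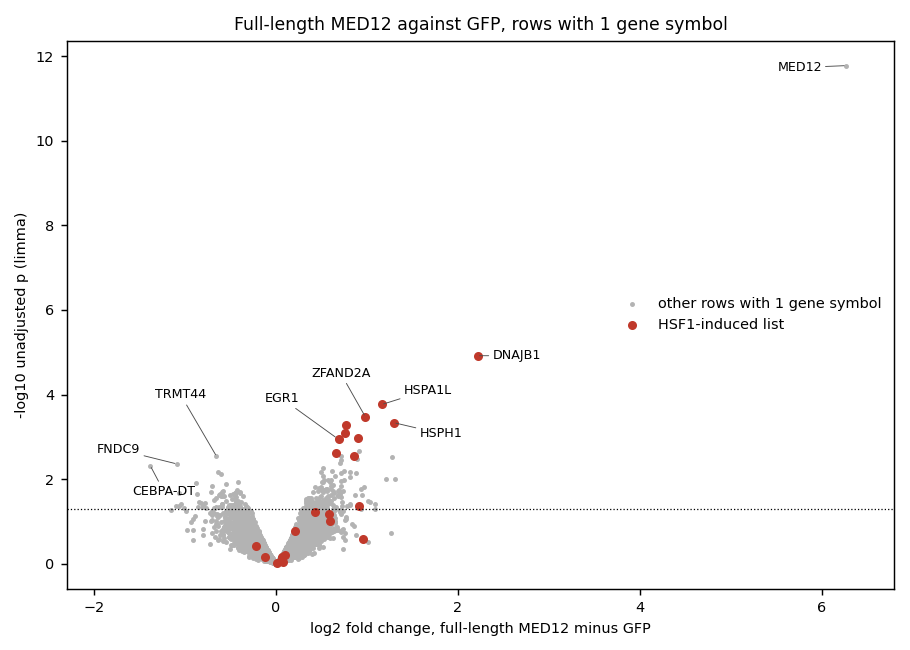
Log2 fold change of full-length MED12 over GFP (horizontal axis) against -log10 of the unadjusted limma p (vertical axis) for the rows with 1 gene symbol. Red points are the 23 measured members of the HSF1-induced list, grey points all other rows, and the dotted line marks an unadjusted p of 0.05. MED12 stands alone at 6.27, DNAJB1 follows at 2.22, and most of the next named points on the right are red.

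After MED12, the rows with the lowest p on the higher side were mainly chaperone genes. Of the 12 rows with 1 symbol, no overlap between groups, a level at or above the median and the lowest p, 10 belonged to the chaperone and protein clearance lists. They were DNAJB1, HSPA1L, ZFAND2A, HSPH1, SERPINH1, HSPA8, HSPA4L, UBB, DNAJB4 and BAG3, and the other members were MED12 itself and EGR1. Of the 12 rows chosen the same way on the lower side, 0 belonged to those lists. Apart from MED12, none of these rows passed over the whole table in the fit of group means alone. DNAJB1 passed with the block and in some other fits, and ZFAND2A and HSPH1 passed with array weights. The chaperone and clearance lists, which overlap, hold 4 to 35 measured genes each, of 14432 rows with 1 symbol. Their share among rows that meet the same rule was not counted. With lists this small, 0 of 12 on the lower side says little. These lists were chosen with earlier results of these data known, so the counts are descriptions.

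The HSF1-induced list held 31 genes, of which 23 were measured in a row with 1 symbol. Of the others, 6 were found only in rows with several symbols (HSPA1A, HSPA1B, HSPA6, CRYAB, HSP90AB1 and TCP1), and the remaining 2 were not analysed here. Of the 23, 21 lay above 0 and the median log2 fold change was 0.66, beside 48.9% of all rows with 1 symbol above 0 and a median of -0.0046. Groups did not overlap in 14 of the 23, all on the higher side, where 3.64% of all rows with 1 symbol were. An unadjusted p under 0.05 was reached by 11 on the higher side, where 1.11% of all rows were, and by 0 on the lower side. With the block 14 reached it, where 2.29% of all rows with 1 symbol did. With the limma adjustment over all rows, 0 of 23 passed, or 1, DNAJB1, with the block. The list was chosen with earlier results of these data known, so its counts beside all rows are descriptions and no independent evidence.

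Set against the GFP mean, the median over the list was 0.62, 0.56 and 0.75 in the full-length arrays, 0.13, 0.32 and 0.36 in the PQL/Opa-deleted arrays, and -0.20, 0.15 and 0.11 in the GFP arrays. All 3 full-length arrays lay above all others, and the lowest control array was the narrow replicate 1. Without that GFP array the list median was 0.43, with 20 of 23 members above 0 and 10 at an unadjusted p under 0.05 on the higher side, where 57.7% and 0.935% of all rows with 1 symbol were. Without replicate 1 of every group the median was 0.35, with 19 members above 0 and 10 at such a p, where 54.7% and 1.18% of all rows with 1 symbol were. Both sets of counts were added after seeing the data. The part of array spread in the size of the list median was not tested beyond these values.

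The promoters of several of these genes hold heat shock elements, and those stretches are shown because the list was defined by the factor that binds them. RefSeq promoter sequences on GRCh38.p14 were available for 11386 of the 14232 measured genes and for 22 of the 23 list members. The 250 bases before each start were searched on both strands for 3 alternating units, GAANNTTCNNGAA, and for both arrangements of 2 units, GAANNTTC and TTCNNGAA. Either form of 2 units reads the same on both strands, and each match of 3 units contains one of each. The 3-unit motif was found in 5 of the 22 list promoters (22.7%) and in 52 of all measured promoters (0.457%). GAANNTTC was found in 12 (54.5%), against 730 of all (6.41%), and TTCNNGAA in 7 (31.8%), against 854 of all (7.50%). The list's genes were assembled as HSF1 targets, so these shares describe the list and are no evidence about MED12.

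The following stretches are given 5′ to 3′ on the strand of the gene, with the matched units in capitals. DNAJB1 lies at chr19:14518435-14518506 (minus strand) and holds GAANNTTC in separate copies, the upstream one starting 77 bases before the gene's start.
DNAJB1: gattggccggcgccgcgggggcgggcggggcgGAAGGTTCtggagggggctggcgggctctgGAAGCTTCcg
HSPA1L lies at chr6:31815405-31815476 (minus strand) and its single GAANNTTC starts 161 bases before the gene's start.
HSPA1L: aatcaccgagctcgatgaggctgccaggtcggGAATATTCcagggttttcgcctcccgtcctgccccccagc
SERPINH1 lies at chr11:75562145-75562221 (plus strand) and holds the 3-unit motif, read here on its other strand.
SERPINH1: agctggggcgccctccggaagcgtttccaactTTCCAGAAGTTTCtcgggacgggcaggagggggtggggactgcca
HSPA8 lies at chr11:123062322-123062386 (minus strand) and holds the 3-unit motif 230 bases before the gene's start.
HSPA8: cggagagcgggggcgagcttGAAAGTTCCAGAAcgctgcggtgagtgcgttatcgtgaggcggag
HSP90AA1 is shown for contrast, at chr14:102087088-102087164 (minus strand), since it holds the 3-unit motif but had a log2 fold change near 0 (0.07 ± 0.18, SE).
HSP90AA1: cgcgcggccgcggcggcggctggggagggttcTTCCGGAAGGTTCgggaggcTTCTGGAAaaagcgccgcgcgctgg
HSPH1, BAG3 and UBB, each among the 12 rows with the lowest p, held none of these motifs in the searched window. Among those 12 rows the 3-unit motif was present in 2, GAANNTTC in 4 and TTCNNGAA in 5. Among the 10 rows on the lower side with a promoter sequence, none of the motifs was present. All measured promoters held them in 0.457%, 6.41% and 7.50%, so 0 of 10 is near those shares and says little. A match is a description of the sequence and does not show that a factor was bound.

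Among the DNAJ co-chaperones, DNAJB1, the main inducible HSP40 of the cytosol, had the second largest log2 fold change of any row with 1 symbol at an unadjusted p under 0.01. DNAJB1 read 5.59, 5.86 and 6.35 with full-length MED12, against 3.41, 3.88 and 3.86 with GFP. The lowest full-length array was well above the highest control array. The mean was 5.93 ± 0.38 with full-length MED12 and 3.72 ± 0.27 with GFP (SD, n = 3 each), a log2 fold change of 2.22 ± 0.30 (SE), or 4.65-fold. It narrowly missed the threshold with limma (adjusted p = 0.0664). It passed with the replicate number as a block (limma adjusted p = 0.0160), and its limma adjusted p ranged from 0.00293 to 0.732 over the alternatives. Its log2 fold change ranged from 2.01 to 2.39 over the same alternatives.

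DNAJB4, another cytosolic HSP40 of the same class, read 5.37, 5.61 and 5.11 with full-length MED12, against 4.12, 4.47 and 4.77 with GFP. The groups did not overlap, and the log2 fold change was 0.91 ± 0.23 (SE). DNAJA1, which helps HSP70 with mitochondrial import and steroid receptor folding, read 7.31, 7.36 and 7.68 with full-length MED12, against 6.24, 7.26 and 7.09 with GFP. The gap between the DNAJA1 groups was small and its mean difference, 0.59 ± 0.33 (SE), rested largely on the low control array. DNAJA4 differed by 0.01 ± 0.18 (SE). Over the 35 measured DNAJ genes the median log2 fold change was 0.01, 20 lay above 0, and groups did not overlap in 3 on the higher side and 1 on the lower side, beside 3.64% and 2.75% of all rows with 1 symbol. The DNAJ family as a whole was therefore centred near 0, with DNAJB1 and DNAJB4 at its upper end.

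**Figure D2:**
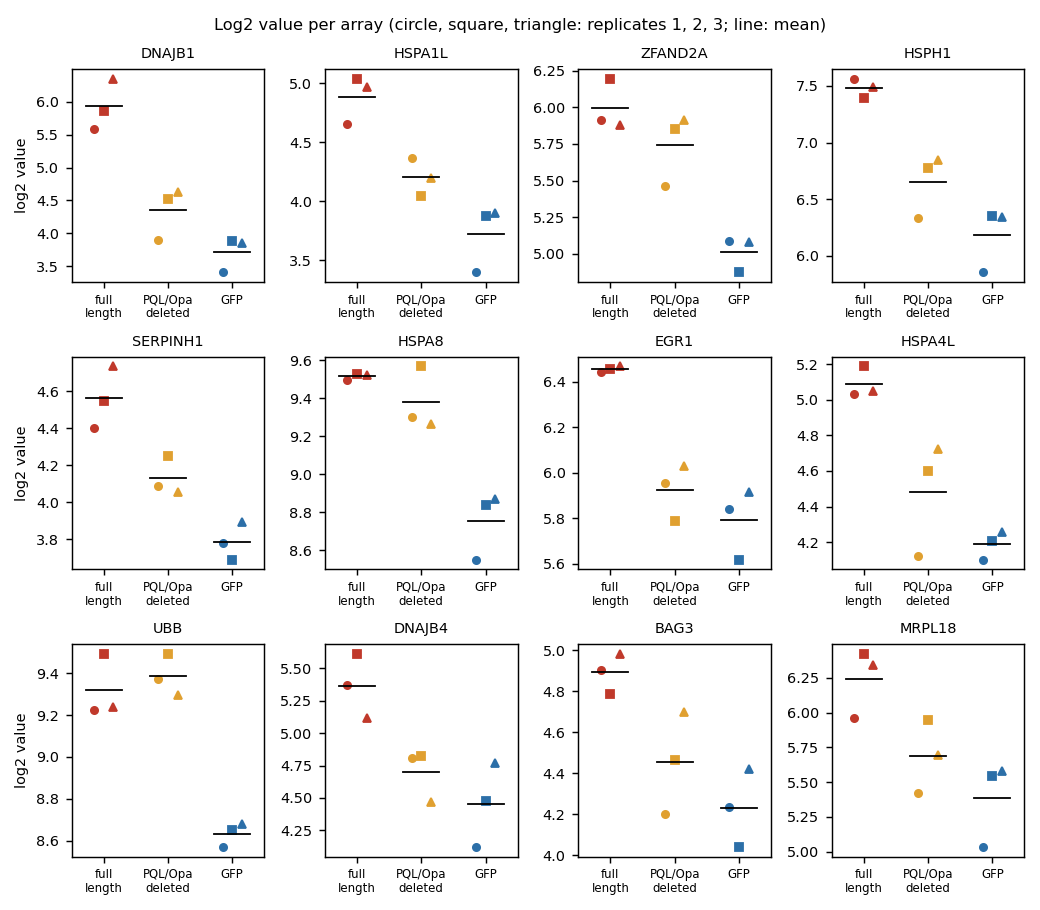
Log2 value of each array for the 11 genes other than MED12 that had the lowest p on the higher side, and for MRPL18, in full-length MED12 (red), PQL/Opa-deleted MED12 (orange) and GFP (blue). Circles, squares and triangles are replicates 1, 2 and 3, lines are group means, and the vertical axes differ between panels and do not start at 0. The full-length points lie above all GFP points in each panel, while the PQL/Opa-deleted points overlap the full-length points for ZFAND2A, HSPA8 and UBB.

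In the HSP70 family, HSPA1L, a relative of the inducible HSP70 genes, read 4.66, 5.04 and 4.97 with full-length MED12, against 3.40, 3.87 and 3.90 with GFP. The groups were separate, 1.16 ± 0.21 apart on the log2 scale (SE), with a limma adjusted p of 0.756. Its sequence resembles that of its neighbours HSPA1A and HSPA1B, so reads of those transcripts by its probes cannot be told apart from its own. HSPA8, the constitutive cytosolic HSP70, read 9.49, 9.53 and 9.52 with full-length MED12, against 8.55, 8.84 and 8.87 with GFP. The full-length arrays of HSPA8 were almost identical, and the log2 fold change was 0.76 ± 0.17 (SE). HSPA8 also has many processed copies in the genome, which leaves its row uncertain.

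HSPH1 (HSP110), a nucleotide exchange factor of HSP70, read 7.56, 7.39 and 7.49 with full-length MED12, against 5.86, 6.36 and 6.34 with GFP. The groups were more than 1 log2 unit apart at their means, 1.30 ± 0.27 (SE), and this difference missed the threshold over all rows. Its relative HSPA4L read 5.03, 5.19 and 5.05 with full-length MED12, against 4.10, 4.21 and 4.26 with GFP, a log2 fold change of 0.90 ± 0.21 (SE). Both groups of HSPA4L were tight and separate. The closely related HSPA4 differed by 0.10 ± 0.20 (SE), and its groups overlapped. BAG3, which couples HSP70 to selective autophagy, read 4.90, 4.79 and 4.98 with full-length MED12, against 4.23, 4.04 and 4.42 with GFP, a log2 fold change of 0.66 ± 0.17 (SE). Over the 18 measured HSP70, HSP110 and BAG genes, 16 lay above 0 with a median of 0.26, and groups did not overlap in 6, all on the higher side, beside 3.64% of all rows with 1 symbol. That median was 0.16 without replicate 1 of every group and 0.43 without GFP replicate 3.

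The inducible HSP90 gene lay close to the control. HSP90AA1, the inducible cytosolic form, read 9.87, 9.73 and 9.49 with full-length MED12, against 9.69, 9.55 and 9.66 with GFP, and the groups overlapped. Among its co-chaperones, FKBP4, an immunophilin of steroid receptor complexes, read 6.43, 6.45 and 6.79 with full-length MED12, against 4.86, 5.90 and 6.16 with GFP. The FKBP4 groups did not overlap, but the control arrays were widely spread and the log2 fold change was 0.91 ± 0.40 (SE). STIP1, which bridges HSP70 and HSP90, had 0.58 ± 0.29, and CHORDC1, an HSP90-binding zinc protein, had 0.96 ± 0.82 (SE). Over the 9 measured HSP90 and co-chaperone genes the median was 0.27 and 8 lay above 0. It was 0.04 without full-length replicate 1, 0.14 without GFP replicate 1 and 0.0067 without replicate 1 of every group, so that its size rested on those arrays.

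The mitochondrial chaperonin genes and the small heat shock proteins were centred near or below the control level. HSPD1 (HSP60) had a log2 fold change of -0.12 ± 0.32 (SE) and its partner HSPE1 (HSP10) had 0.07 ± 0.56. The GFP mean of HSPE1 stood at percentile 23.5 of the rows. The small heat shock proteins had a median GFP level of 3.10, below the 3.42 of all rows with 1 symbol. Whether rows this low exceed background is not known, so a difference near 0 in them says little. HSPB1 (HSP27), a holdase usually induced with the inducible HSP70 genes, had -0.23 ± 0.25 (SE), with 3.85, 3.89 and 3.73 with full-length MED12, against 4.15, 4.28 and 3.72 with GFP. HSPB1 and HSPD1 were the 2 measured members of the HSF1-induced list below 0. Over the 8 small heat shock proteins 3 lay above 0, with a median of -0.03. HSF1 itself read 4.16, 4.03 and 3.89 with full-length MED12, against 4.71, 4.14 and 3.81 with GFP, and these ranges overlapped. The median over the 4 measured genes of the heat shock factor list was 0.00. The factors HSF1 and HSF4 had -0.19 ± 0.25 and -0.14 ± 0.19 (SE). The other members, HSBP1 and HSF2BP, are binding proteins and had 0.15 ± 0.26 and 0.15 ± 0.17 (SE).

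SERPINH1 (HSP47), the collagen chaperone of the endoplasmic reticulum and an HSF1 target, read 4.40, 4.55 and 4.73 with full-length MED12, against 3.78, 3.69 and 3.90 with GFP. The groups did not overlap, with a log2 fold change of 0.77 ± 0.16 (SE). The rest of the endoplasmic reticulum list stayed closer to the control: over its 22 measured genes 15 lay above 0, with a median of 0.05. HERPUD1, which serves degradation of proteins from that compartment, had 0.45 ± 0.20 (SE).

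Genes for clearance of damaged protein were also among the rows with the lowest p. ZFAND2A (AIRAP), a proteasome-associated zinc finger protein induced by arsenite and heat, read 5.91, 6.19 and 5.88 with full-length MED12, against 5.09, 4.87 and 5.08 with GFP. The lowest full-length array exceeded the highest control array, and the difference of the means was 0.98 ± 0.19 on the log2 scale (SE), with a limma adjusted p of 0.912. UBB, a polyubiquitin gene, read 9.23, 9.49 and 9.24 with full-length MED12, against 8.57, 8.65 and 8.68 with GFP, a log2 fold change of 0.69 ± 0.16 (SE). The UBB groups were separate, though UBB shares its ubiquitin repeats with other genes. MRPL18, a mitochondrial ribosomal protein that also has a stress-induced cytosolic form, read 5.96, 6.42 and 6.34 with full-length MED12, against 5.03, 5.55 and 5.58 with GFP, or 0.86 ± 0.23 (SE). Over the 14 measured clearance genes 12 lay above 0, with a median of 0.24, and groups did not overlap in 3 on the higher side, beside 3.64% of all rows with 1 symbol. That median was 0.07 without GFP replicate 1, 0.16 without full-length replicate 3 and 0.14 without replicate 1 of every group.

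Full-length MED12 was next set against the PQL/Opa-deleted construct, with the same full-length arrays as before. DNAJB1, HSPH1, HSPA1L, EGR1, HSPA8, ZFAND2A and UBB were chosen for high full-length values against GFP. Their differences between constructs are therefore biased upward, and their unadjusted intervals are no independent evidence. MED12 was the 1 row with 1 symbol that passed (0.00693%), on the higher side, and 0 passed on the lower side (0.00%). At an unadjusted p under 0.05, 111 rows with 1 symbol were higher with full-length MED12 (0.769%) and 67 were lower (0.464%). Of the 23 list members, 18 were higher with full-length MED12, and 8 had an unadjusted p under 0.05 on that side. Their median difference was 0.38. Among all rows with 1 symbol, 7197 of 14432 were higher, with a median difference of -0.00058. The MED12 row itself was 1.76 higher with full-length MED12, so missing domains and a lower construct level cannot be told apart. DNAJB1 read 3.90, 4.52 and 4.63 with the PQL/Opa-deleted construct, below every full-length array. The lowest of these, 3.90, came from replicate 1, the narrowest array of that group. The DNAJB1 difference was 1.58 (95% interval 0.92 to 2.25, limma adjusted p = 0.923).

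HSPH1 read 6.34, 6.77 and 6.85 with the PQL/Opa-deleted construct and was 0.83 higher with full-length MED12 (95% interval 0.24 to 1.42). HSPA1L read 4.37, 4.04 and 4.20 and was 0.68 higher with full-length MED12 (95% interval 0.22 to 1.15). The full-length arrays of both genes lay above all arrays of the shortened construct. EGR1 was 0.53 higher with full-length MED12 (95% interval 0.20 to 0.87), also without overlap. By contrast HSPA8 differed by 0.14 (95% interval -0.23 to 0.51), ZFAND2A by 0.25 (-0.17 to 0.68) and UBB by -0.07 (-0.42 to 0.28), and these groups overlapped. None of these genes passed over the whole table, so that a difference between constructs is not shown for any of them. HSP90AA1 was 0.57 higher with full-length MED12 than with the PQL/Opa-deleted construct (95% interval 0.18 to 0.96), where it read 9.15, 8.88 and 9.34, below the GFP arrays given above.

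**Figure D3:**
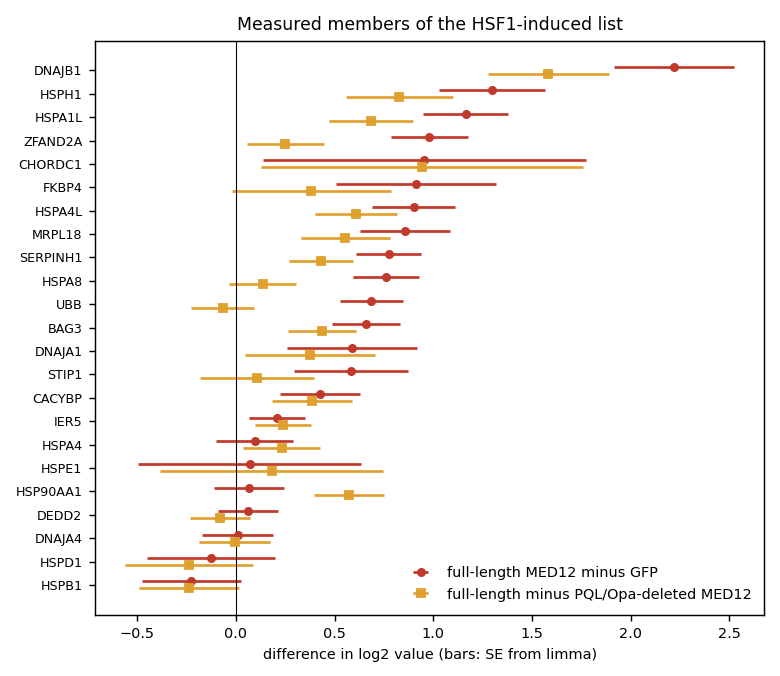
Differences in log2 value for the 23 measured members of the HSF1-induced list, full-length MED12 minus GFP (red circles) and full-length minus PQL/Opa-deleted MED12 (orange squares), with bars of 1 SE from limma. The full-length arrays enter both differences, so that the 2 series of points are not independent. DNAJB1 stands at 2.22 and 1.58, while UBB and HSPA8 stand near 0 in the second difference.

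The immediate early genes, which respond to growth factors and stress within minutes, had a median log2 fold change of 0.10 over 30 measured members, 21 of them above 0. EGR1, a zinc finger transcription factor, read 6.44, 6.46 and 6.47 with full-length MED12, against 5.84, 5.62 and 5.91 with GFP. The full-length arrays of EGR1 were nearly equal and lay above the control arrays, with a log2 fold change of 0.66 ± 0.15 (SE). DUSP1, a phosphatase that turns off MAP kinases, had 0.61 ± 0.20, and ZFP36, which destabilises AU-rich messages, had 0.46 ± 0.21 (SE). Groups did not overlap in 5 of the 30, all on the higher side, beside 3.64% of all rows with 1 symbol. The list median was 0.17 without GFP replicate 1.

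Targets of ATF4, which drives the response to amino acid shortage, showed a median of 0.16 over 26 measured members, 22 of them above 0. It was 0.08 without GFP replicate 1 and 0.10 without full-length replicate 3. DDIT4 (REDD1), an inhibitor of mTORC1, read 5.08, 4.94 and 4.86 with full-length MED12, against 3.65, 4.44 and 4.35 with GFP. These arrays did not overlap, with a log2 fold change of 0.81 ± 0.26 (SE). Interferon-stimulated genes had a median of 0.10 over 35 measured members, 25 of them above 0, and groups did not overlap in 7, all on the higher side, beside 3.64% of all rows with 1 symbol. Their median was 0.18 without GFP replicate 1 and 0.04 without GFP replicate 2. ISG15, a ubiquitin-like modifier, had 0.70 ± 0.20 and IFIT2, an RNA-binding antiviral protein, had 0.69 ± 0.25 (SE). The interferon-stimulated list had a larger median against GFP with the PQL/Opa-deleted construct, 0.25. Only 7 of its 35 members were higher with full-length MED12 than with that construct, and the median difference was -0.19. IFI44 had 0.51 ± 0.16 (SE) against GFP, and full-length MED12 was 0.39 below the PQL/Opa-deleted construct for this gene (95% interval -0.75 to -0.04). None of these genes passed over the whole table.

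Pathways to which MED12 has been linked in other work had list medians near 0. Measured Hedgehog genes had a median of -0.05 (7 of 18 above 0), and GLI3, a transcription factor of that pathway, had 0.33 ± 0.14 (SE). Wnt and beta-catenin targets had a median of 0.04 (9 of 17 above 0), with DKK1, a secreted Wnt antagonist, at 0.50 ± 0.18 and TCF7L1, a repressor of the pathway, at -0.30 ± 0.14 (SE). REST is the repressor of neuronal genes outside neurons. Genes repressed by REST had a median of -0.10 (7 of 26 above 0), and REST with its corepressors had -0.03 (5 of 15 above 0). TGF-beta, BMP and SOX9 targets had a median of -0.03 (7 of 18 above 0), and BAMBI, a decoy receptor of that family, read 4.70, 4.32 and 4.82 with full-length MED12, against 3.85, 3.80 and 3.96 with GFP. No gene of these lists passed. Signs of medians this small were unstable: over all 40 lists, 25 medians changed sign under at least 1 alternative, and 17 did so without GFP replicate 1.

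**Figure D4:**
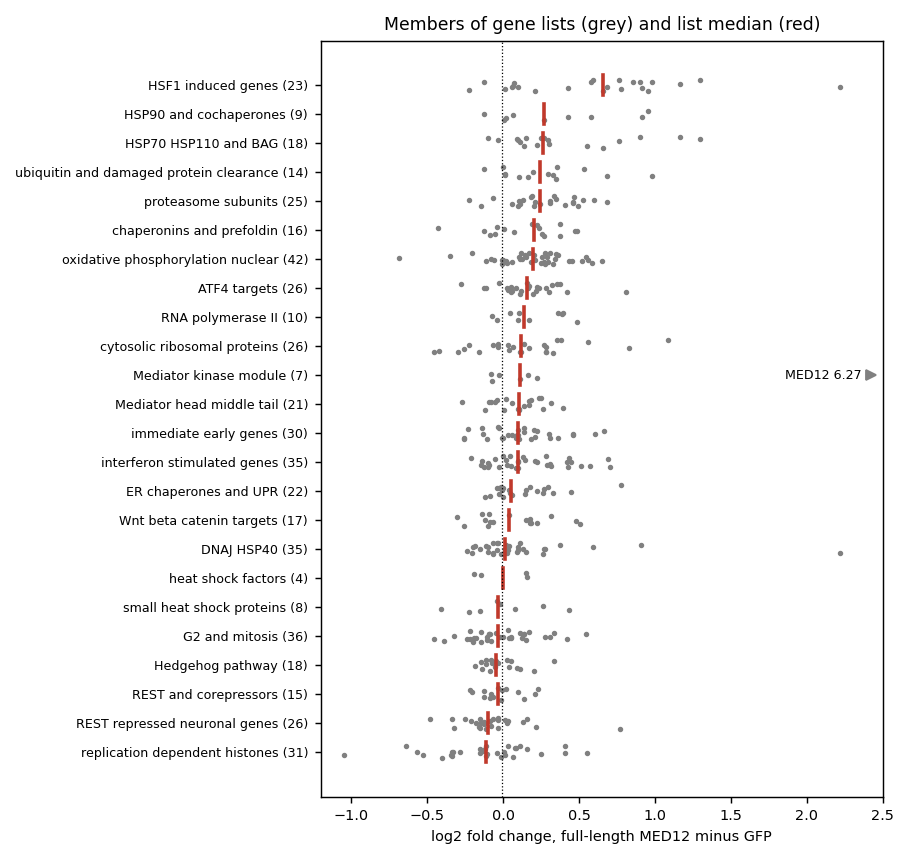
Log2 fold change of full-length MED12 over GFP for the measured members of 24 gene lists (grey points, number of members in parentheses), with the list median in red and the median of all rows with 1 gene symbol as a dotted line. MED12, at 6.27, lies off the axis and is drawn as an arrowhead. The HSF1-induced list has the highest of the medians shown, 0.66, and the DNAJ family and the heat shock factor list are centred near 0. Lists were chosen with earlier results of these data known.

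The core of Mediator and RNA polymerase II differed little from the control. Over 21 measured subunits of the head, middle and tail the median was 0.10 and 15 lay above 0, with the extremes at MED20 (-0.27 ± 0.23, SE) and MED21 (0.40 ± 0.37). Over 10 measured polymerase II subunits the median was 0.14 and groups did not overlap in 0, but the median was -0.04 without GFP replicate 1. Cell cycle lists also had medians close to 0, at 0.11 for cyclins and G1/S regulators, 0.07 for DNA replication and -0.03 for G2 and mitosis. CCND2 (cyclin D2) had 0.48 ± 0.19 and CENPE, a kinesin of the kinetochore, had -0.45 ± 0.20 (SE). Targets of p53, NF-kappaB targets and the NRF2 and metal response had medians of -0.01, -0.01 and 0.02, and FTL, the ferritin light chain, read 4.04, 3.60 and 4.18 with full-length MED12, against 2.99, 3.16 and 3.53 with GFP. Apoptosis regulators had a median of 0.04, hypoxia and glycolysis genes 0.10, oestrogen and nuclear receptor targets -0.07, cholesterol and fatty acid synthesis 0.00035, and replication-dependent histones -0.11.

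Lists of strongly expressed housekeeping genes had medians somewhat above 0. Proteasome subunits had a median of 0.24 with 22 of 25 above 0, nuclear-encoded oxidative phosphorylation genes had 0.20 with 33 of 42 above 0, chaperonins and prefoldins had 0.21 with 11 of 16 above 0, and cytosolic ribosomal proteins had 0.12 with 17 of 26 above 0. An unadjusted p under 0.05 was reached on the higher side by 0 proteasome, 3 oxidative phosphorylation, 0 chaperonin and 1 ribosomal gene, beside 1.11% of all rows with 1 symbol. Without GFP replicate 1 the medians were 0.10 for the proteasome, 0.10 for oxidative phosphorylation, 0.03 for chaperonins and prefoldins and 0.05 for ribosomal proteins, and the ribosomal median was -0.0080 without full-length replicate 2. RPL35A, the ribosomal gene with the highest value, read 5.50, 6.15 and 5.42 with full-length MED12, against 5.08, 5.50 and 3.23 with GFP, and these arrays overlapped.

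The fold change varied with the level of a row. In the lowest of 10 equal bins of mean level the median log2 fold change was -0.07, and in the highest bin it was 0.12, with 73.1% of 1444 rows above 0. Without replicate 1 of both groups the same bins had medians of 0.06 and 0.0014. Groups did not overlap on the higher side in 102 rows of the highest bin (7.06%) and in 15 rows of the lowest (1.04%). The members of the HSF1-induced list had a median log2 level of 4.57 with GFP, above the 3.42 of all rows with 1 symbol, and the list median of 0.35 without replicate 1 compares with 0.0014 in the highest bin under the same setting.

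**Figure D5:**
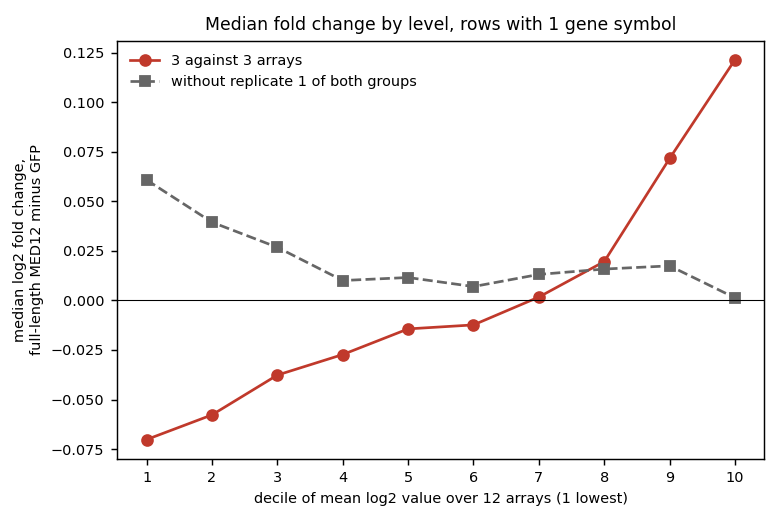
Median log2 fold change of full-length MED12 over GFP in 10 bins of mean log2 value over the 12 arrays, lowest at the left, for the rows with 1 gene symbol. Red circles use all arrays and grey squares leave out replicate 1 of both groups. The red line runs between -0.07 and 0.12, and the grey line between 0.06 and 0.0014.

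On the lower side 0 rows passed, and the rows named here are descriptions. THAP5, a THAP-domain DNA-binding protein, had the lowest p among the 12 chosen rows and read 3.85, 4.18 and 3.39 with full-length MED12, against 4.37, 4.39 and 4.49 with GFP. The control arrays of THAP5 were close together and the full-length arrays varied, with a log2 fold change of -0.61 ± 0.19 (SE). PCNP, a PEST-containing nuclear protein, read 6.42, 6.35 and 6.30 with full-length MED12, against 6.94, 6.76 and 6.64 with GFP, or -0.42 ± 0.14 (SE). SELENON, a selenoprotein of the endoplasmic reticulum, had -0.88 ± 0.30, and its highest full-length array, 5.82, equalled its lowest control array to 2 decimals. CEP55, a midbody protein of cytokinesis, had -0.44 ± 0.16, and AK3, a mitochondrial adenylate kinase, had -0.40 ± 0.15 (SE). Full-length minus PQL/Opa-deleted MED12 was -0.03 for THAP5, 0.08 for PCNP and -0.07 for CEP55. That difference was -0.72 for SELENON and -0.33 for AK3. These rows were chosen for low full-length values against GFP, so their differences between constructs are biased downward. High values in the shared GFP arrays would also make both constructs look low, so a similar level with either construct is no independent evidence.

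The other 7 of the 12 were ZFTRAF1, INKA1, GPR63, LCN12, GAST, BCAM and RAC3, with log2 fold changes between -0.87 for GPR63, an orphan receptor, and -0.39 for RAC3. By size, the lowest rows at an unadjusted p under 0.01 were CEBPA-DT, a noncoding transcript beside CEBPA, and FNDC9. CEBPA-DT read 2.25, 0.85 and 1.96 with full-length MED12, against 3.12, 3.51 and 2.58 with GFP, and FNDC9 read 2.66, 2.89 and 2.59, against 4.45, 4.06 and 2.93 with GFP. Whether such low levels exceed background is not known. TRMT44, a tRNA methyltransferase, had -0.66 ± 0.17 (SE) in 1 row and 0.13 in its other row, so that its rows disagreed. LRRC18 had -0.64 ± 0.19 (SE).

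On the higher side the rule by size also named 3 genes outside the chaperone lists, apart from MED12. IFNA6, a type I interferon gene with close relatives, read 4.29, 3.47 and 3.49 with full-length MED12, against 1.97, 2.39 and 3.08 with GFP. Its groups were separate, but whether its GFP mean, at percentile 17.9 of the rows, exceeds background is not known. OLIG2, a transcription factor of the oligodendrocyte lineage, had 0.89 ± 0.24 and OXSR1, a kinase that regulates ion cotransporters, had 0.88 ± 0.27 (SE). The groups of OLIG2 and OXSR1 did not overlap.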

How the data were processed

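The authors deposited 1 log2 value per row and array, made with Partek and RMA on build hg18, per the submitters' processing notes. For versions, probe set level, background option and filters, the sources used here give nothing. The deposited log2 values entered the tests unaltered, without offset or filter, and 0 columns of values were left out. Symbols came from the platform annotation: 14432 rows had 1 symbol, 2408 several and 5171 none, and 14404 of the first were matched by Entrez identifier to RefSeq. Rows with several symbols were tested but not named, and no hg18 positions are given.

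A model of 4 group means was fitted across the 12 arrays (limma 3.58.1 under R 4.3.3, lmFit and eBayes without trend, 8 residual and 3.52 prior degrees of freedom). Tests were two-sided, p-values were adjusted by Benjamini-Hochberg over the 22011 rows, and 0.05 was the threshold. All p-values and SEs are limma's. With 3 arrays a group, the smallest p of an exact permutation test is 0.1. The number of arrays limits the precision (median SE of a log2 fold change 0.23). The fitting scripts were tested on simulated data.

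Replicate numbers come from the labels, and what a number stands for is not stated there. Deviations of same-numbered full-length and GFP arrays correlated at 0.218, 0.101 and 0.229, all above the preset 0.1, so the number was taken to pair them and the blocked value stands beside each call it changes. For full-length and PQL/Opa-deleted arrays the correlations were 0.240, 0.0761 and 0.218, not all above 0.1. Unless an alternative is named, SEs, intervals and p-values come from the fit without the block, and so leave the pairing out. With the block the limma adjusted p was 0.464 for both HSPA1L and ZFAND2A, and neither passed.

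Genes are named by rule: MED12 and MED12L, rows past the threshold, per direction the 12 rows with the lowest p (no overlap, level at or above the median) and up to 10 with the largest fold change at an unadjusted p under 0.01, up to 4 members per list by p, and any heat shock or kinase module member. MRPL18, HSF1 and other heat shock members come under the last part. The 40 lists hold 883 genes, of which 696 were measured, each by its row with the highest mean. Members and lists were chosen with earlier results of these data known, and lists received no test. Figures were drawn with matplotlib 3.10.9 in Python 3.11.15. Alternatives were the block, the arrays of the compared groups alone, trend, robust eBayes, quantile and MAD scaling, array weights, rows at or above the median level, rows with 1 symbol, and leaving out arrays.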

Additional observations from a re-analysis of the deposited data

Results flagged for a closer look

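Outside the rows with 1 gene symbol, both rows that passed beside MED12 carry several symbols, so that their signal belongs to no single gene. Row 2363784, with 2 symbols, read 6.86, 6.94 and 6.69 with full-length MED12, against 4.35, 4.67 and 4.35 with GFP. The log2 fold change was 2.37 ± 0.17 (SE), with a limma adjusted p of 1.31e-04. It read 5.61, 5.46 and 5.40 with the PQL/Opa-deleted construct, below every full-length array. Row 3391149, with 3 symbols, read 3.87, 4.19 and 4.36 with full-length MED12, against 1.87, 1.57 and 1.98 with GFP. The log2 fold change was 2.33 ± 0.23 (SE), with a limma adjusted p of 0.00321. Whether its GFP mean, at percentile 6.35 of the rows, exceeds background is not known, which makes the size of its difference uncertain. In each of these rows 1 of the symbols belongs to the heat shock lists, and which gene gave the signal was not tested. Groups of 3 arrays are too small for a test of single outlying arrays, so none was made.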

How the results depend on the processing

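MED12 passed under all 24 alternatives, with log2 fold changes of 6.02 to 6.40. The 3 rows that passed became 4 with the replicate block or a trend, 6 with array weights, 2 over rows with 1 symbol alone (MED12 and DNAJB1), 5 with quantile normalization and the block (4 higher, 1 lower), and 2 to 4 when arrays were left out. That includes 2 without full-length replicate 1 and GFP replicate 1, an alternative chosen, like quantile normalization with the block, after seeing the data. The row added by the block was DNAJB1, and the block changed no other call among the named genes. In all, DNAJB1 passed under 7 of 24 alternatives: the block (limma adjusted p = 0.0160), the block with quantile normalization (0.0430), a trend (0.0497), rows at or above the median level (0.0422), rows with 1 symbol (0.0191), no shRNA replicate 2 (0.0175) and array weights (0.00293). With array weights ZFAND2A (0.0266) and HSPH1 (0.0439) passed too.

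The median of the HSF1-induced list, 0.66, was 0.45 with median and MAD scaling, 0.49 with array weights and 0.35 to 0.75 when arrays were left out, with 0.43 without GFP replicate 1 and 0.35 without replicate 1 of every group. A filter at the median level removes members and gave no value. The 1 row that differed between full-length and PQL/Opa-deleted MED12 became 0 with a trend, 2 with quantile normalization, 4 with array weights, 2 over rows at or above the median level, 3 with quantile normalization and the block, and 0 to 3 when arrays were left out. Using those groups alone, the 1 row was another, lower one, with 0 shared.

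Of the 40 list medians, 25 changed sign under at least 1 alternative, 23 of them when arrays were left out, 17 without GFP replicate 1 and 14 with every array kept. The median of all rows with 1 symbol ranged from -0.023 to 0.037. The single gene MED12L ranged from -0.16 to 0.10 when arrays were left out, above 0 without replicate 1 of either or both groups. Its SE was 0.18, so that change of sign was small. Most sign changes of list medians were within the spread between replicates, and those beyond it follow. The median of chaperonins and prefoldins ranged from -0.019 to 0.34 when arrays were left out, below 0 without replicate 1 of every group and without full-length and GFP replicate 1. That of p53 targets ranged from -0.032 to 0.054, above 0 without full-length replicate 1 or 3 or GFP replicate 3. With array weights the median of the DNAJ list was -0.027 and that of Hedgehog genes 0.039. The cause of these shifts was not tested.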
